A study of Mus musculus with 753 samples.

Results

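The cells described here are the basal interfollicular keratinocytes (IFE-B, the identity given to them in the deposited annotation) that the same annotation places in cluster 2. They number 106 of the 684 annotated cells and 106 of the 373 IFE-B cells, and the other 267 IFE-B cells, in clusters 0, 1, 3, 4 and 5, served for comparison. The cells were chosen by these 2 columns alone, both of which the authors computed from the cells' expression values. Cluster 2 holds 146 cells in all, among them 22 of the upper follicle identity uHF-I and 15 of the outer bulge.

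All cells were single epidermal keratinocytes sequenced by Smart-seq2, a plate method that covers whole transcripts and has no molecular identifiers. The mice, labelled Gata6EFGPCreERT2 Rosa26-fl/STOP/fl-tdTomato43, were Cre (+/-) and tdTomato (+/-) adults, and every group, unwounded skin included, received topical 4-hydroxytamoxifen. Cells with tdTomato (lin+) descend from cells that expressed Gata6 at labelling, and cells without it (lin-) were sorted from the same skin. Skin was unwounded (day 0) or taken from wounds at days 6, 9 and 11. Because the Gata6 promoter drives Cre, the label follows cells that expressed Gata6 when the drug was given, and lin- cells are all other keratinocytes of the sort. Days 0, 9 and 11 have 2 replicates, each treated here as 1 mouse set, and the labels of day 6 name none, so day 6 counts as 1 mouse set of pooled mice. The methods give 2 replicates for day 6 as well, which the labels do not tell apart. Unwounded skin was, by the methods, taken from wounded mice at a distance from the wound, so mouse sets of different days may share a mouse.

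Basal keratinocytes sit on the basement membrane, divide, and give rise to the suprabasal layers, and they make the keratins Krt5, Krt14 and Krt15 and the integrins and laminins of the hemidesmosome. Ribosomal RNA makes up most of the RNA of any cell, but libraries primed on poly(A) tails carry little of it, so its share of the reads varies with how a library was made. Ccl27a, the other gene given as a marker of these cells, encodes a chemokine of skin keratinocytes that attracts T cells.

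Cluster 2 cells came mostly from unwounded skin and from day 6. Of the 106, 91 (85.8%) were of these days, against 121 of the other 267 IFE-B cells (45.3%). At day 0 there were 12 lin+ and 13 lin- cells in replicate 1 and 7 lin+ and 8 lin- cells in replicate 2, and at day 6 there were 24 lin+ and 27 lin- cells. The other 15 lay in small groups of 1 to 4 cells at days 9 and 11. Replicate 1 is the first batch of the annotation and replicate 2 with day 6 the second, and the groups of 1 lineage in 1 mouse set at days 0 and 6, the 6 sets with at least 5 cells of each class, were compared within themselves.

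A few of the 106 cells were nearly empty, and the main counts were recomputed without them. Although the methods state that cells under 200 genes were removed, the annotation holds 3 cluster 2 IFE-B cells below that limit, with 5, 8 and 17 genes from 5, 18 and 42 reads, and 1 other IFE-B cell with 182 genes from 1014 reads. No cell of another identity was under 200 genes. Under 100000 reads lay 6 cluster 2 IFE-B cells, 3 other IFE-B cells and 10 of all annotated cells. Without the cells under 200 genes, 3 genes were higher and 870 lower in cluster 2 by the rule given further on, where all cells gave 3 and 864.

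The property that set cluster 2 cells apart from the other IFE-B cells in every set was the small number of genes seen. The median number of genes with a value above 0 was 1274 over the 106 cells and 3044 over the other 267. In day 0 replicate 1 the lin+ cells ran from 945 through a median of 1521 to 4535 genes, against 1179, 2061 and 2773 in the other lin+ IFE-B cells, and 2 of the 12 lay above the median of the others. The lin- cells of that replicate ran from 17 through 1273 to 3412 genes, against 1339, 2372 and 3471, and 1 of 13 lay above. In day 0 replicate 2 the lin+ cells ran from 1272 through 1438 to 1719 genes, against 2004, 2818.5 and 4673, so that the ranges did not overlap.

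The same order held in the remaining sets. The lin- cells of day 0 replicate 2 ran from 1033 through 1450.0 to 1778 genes, against 1392, 2244 and 5637. At day 6 the lin+ cells ran from 261 through 1155 to 5486 genes, against 648, 2896.5 and 5883, and 2 of 24 lay above the median of the others. At day 6 the lin- cells had the fewest, from 206 through 851 to 2073 genes, against 182, 3196.5 and 5781, and none of 27 lay above. The log2 ratio of the medians was between -0.44 and -1.91 in the 6 sets, with a median of -0.93 (SD 0.53, n = 6 sets). Because the clusters were made from these same genes, the comparison of cluster 2 with the other IFE-B cells is a description and carries no test.

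Cluster 2 cells also had fewer reads, a quantity that was scaled out before clustering. Median reads per cell were 2664030.0 against 4479736.0 in day 0 replicate 1, 2245748.0 against 3165187.0 in day 0 replicate 2, 2554386.0 against 3532960.0 at day 6, and 2013158.5 against 6049130.0 in day 9 replicate 1, with both lineages together. The mean log2 ratio was -0.83, with cluster 2 lower in 4 of 4 mouse sets. The exact sign-flip permutation test over mouse sets, two-sided, gave p = 0.125, the smallest p that 4 mouse sets allow, so that this design cannot reach 0.05.

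The difference in genes remained at equal depth. After thinning each cell to 500000 reads outside ribosomal RNA, which 89 of the 106 and 261 of the 267 cells could give, the median was 1081 genes in cluster 2 and 2691 in the others. The log2 ratio over the 6 sets then had a median of -0.97, and of -1.04 after thinning to 200000 reads. Few genes also held most of each cell. The 200 highest genes of a cell took a median of 92.3% of its deposited values in day 0 replicate 1 lin+ cells, against 69.4% in the others, and 96.4% against 52.9% in day 6 lin- cells. Reads in cluster 2 cells were thus spread over fewer genes at equal depth, and whether fewer transcripts were captured from these cells or fewer were present cannot be told apart.

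Low gene numbers were not particular to the IFE-B identity within cluster 2. The 22 uHF-I cells of cluster 2 had a median of 1537 genes, against 2512 in the 93 uHF-I cells of other clusters. The 15 outer bulge cells of cluster 2 had a median of 1355 genes, against 2477.5 in 106. Among IFE-B cells of the other clusters the medians ran from 2438.5 genes (cluster 4, 64 cells) to 3724 (cluster 5, 15 cells).

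Ribosomal RNA, the RNA after which the cluster is known here, took a higher median share of the reads in cluster 2 than in the other IFE-B cells in 5 of 6 sets, by very different amounts. In day 0 replicate 1 it took from 11.6% through a median of 43.8% to 77.6% of reads in the lin+ cells of cluster 2, against 11.1%, 21.4% and 39.8% in the other lin+ IFE-B cells, and 9 of 12 lay above the median of the others. In lin- cells it took from 14.4% through 36.5% to 63.3%, against 11.8%, 26.0% and 41.9%, and 10 of 13 lay above. The log2 ratios of the medians were 1.03 and 0.49. In both lineages the ranges of the classes overlapped.

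In the second batch the share was below 0.25% of reads at the median of every set, and the order of the classes was not the same in every set. The medians were 0.0574% against 0.0556% in lin+ cells and 0.00947% against 0.0513% in lin- cells of day 0 replicate 2, where 4 of 7 and 3 of 8 cluster 2 cells lay above the median of the others. At day 6 they were 0.229% against 0.209% in lin+ cells and 0.234% against 0.159% in lin- cells, with 14 of 24 and 18 of 27 above. The log2 ratios were 0.04 and -2.44 at day 0 and 0.13 and 0.56 at day 6, so that the ratio of lin- day 6 cells was as large as that of lin- cells in the first batch. The upper ends differed more, since single cells of cluster 2 reached 13.1% and 44.2% at day 6, and the highest of the others were 2.73% and 0.731%. The cell at 44.2% had only 206 genes from 852 reads. Over the 6 sets the log2 ratio had a median of 0.31 and an SD of 1.23, larger than the median. The batches differed in this share in both classes, with medians of 34.2% in the first and 0.167% in the second batch for cluster 2 and of 15.6% and 0.0508% for the others, and what set the batches apart was not tested.

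**Figure D1:**
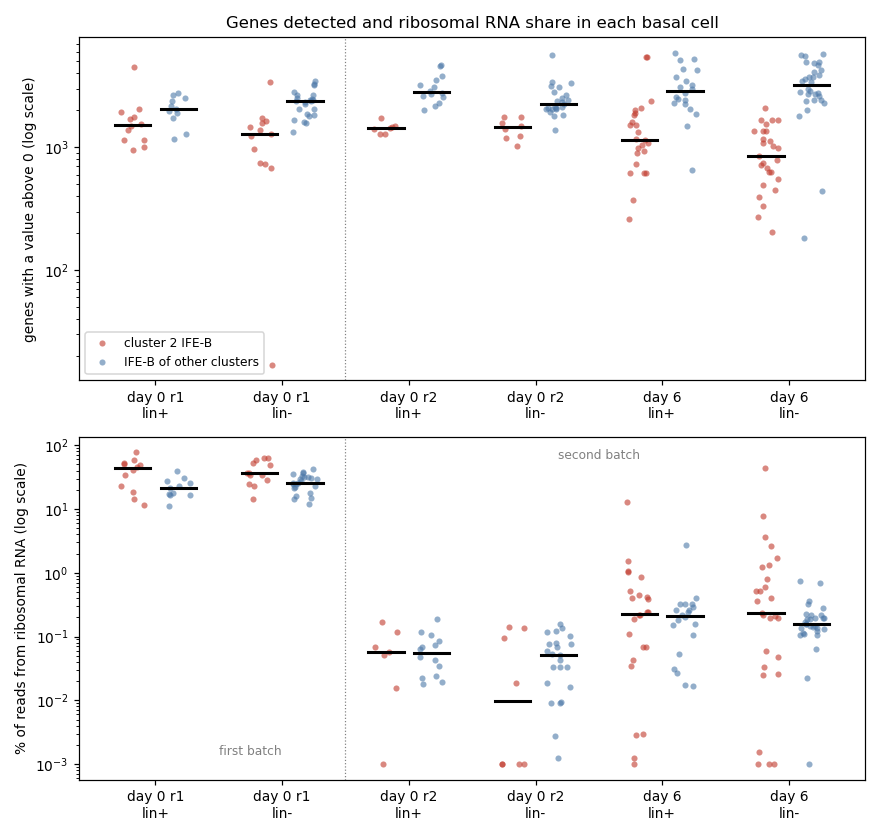
Each point is 1 IFE-B cell of the 6 sets, in red for cluster 2 and in blue for the other clusters, with the genes above 0 (upper plot) and the percent of reads from ribosomal RNA (lower plot), both on log axes, and a bar at each median. Cells at or near 0% are drawn at the bottom of the lower axis. Cluster 2 medians of genes lie below those of the other cells in all 6 sets, while medians of ribosomal RNA lie above those of the other cells in 5 sets, with log2 ratios from 0.04 to 1.03, and below in lin- cells of day 0 replicate 2 (-2.44).

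Of the 3 genes given as markers, none passed the rule used here for a difference, a median over the 6 sets of at least 2-fold with the same direction in every set. The level of a gene is its deposited value, scaled to 1000000 per cell and averaged within a set, which is not divided by gene length in the first batch (counts) and is in the second (RPKM). The ribosomal precursor Rn45s had levels of 371871 and 375162 in lin+ and lin- cluster 2 cells of day 0 replicate 1 against 212867 and 252238 in the other cells, 183 and 158 in replicate 2 against 180.4 and 172, and 2021 and 8527 at day 6 against 635 and 502. The classes were thus alike in replicate 2 and furthest apart in lin- cells of day 6, the set that holds the cell with 852 reads. Rn45s had a median log2 difference of 0.69 (SD 1.56) and was higher in 5 of 6 sets. Rn18s, the small-subunit ribosomal RNA, had 1.05 (SD 1.38), higher in 5 of 6.

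Ccl27a had levels of 7626 and 2769.9 in lin+ and lin- cluster 2 cells of day 0 replicate 1, against 3853 and 3181 in the other cells. In day 0 replicate 2 the levels were 10211 and 7199.9 against 6472 and 4308, and at day 6 they were 5699 and 8618 against 9105 and 4651. It was higher in cluster 2 in 4 of 6 sets, with a median log2 difference of 0.70 (SD 0.68). Fewer cells carried it, 77.7% of the 103 cluster 2 cells with at least 200 genes against 89.8% of 266. In the cells that did, its median level was 5486, against 3052, but these medians pool batches of different unit. Over all cells, with or without reads, the medians were 2959 against 2851 in the first batch and 2924 against 2424 in the second.

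The Ccl27a values carry a limit that the sequence shows. A run of 103 bases of the coding part of exon 2 is identical in Ccl27a and in 2 copies on the same chromosome, and a read that falls within it cannot be assigned to one of them. It is printed from the reference build of the files (GRCm38), on the strand of each gene, in lower case throughout, since all of it is shared. It lies at chr4:41769874-41769976 (minus strand) in Ccl27a, at chr4:42158340-42158442 (plus strand) in Gm13306 and at chr4:42655499-42655601 (plus strand) in Ccl27b.
Ccl27a, Gm13306 and Ccl27b: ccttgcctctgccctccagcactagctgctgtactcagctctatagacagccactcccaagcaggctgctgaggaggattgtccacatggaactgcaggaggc
In cluster 2 cells Gm13306 held 206613 reads in the first batch and 586941 in the second, beside 534282 and 1244459 for Ccl27a, while Ccl27b held 159 and 232. The Ccl27a level is therefore uncertain where reads could be split between copies.

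The 3 basal keratins were seen in most of the cells, with Krt14 at lower levels than in the other IFE-B cells, while most other basal genes were seen in few. Krt14 had reads in 76.7% of the 103 cells against 95.9% of 266, Krt5 in 75.7% against 97.0% and Krt15 in 74.8% against 94.0%. Trp63 had reads in 32.0% against 85.7%, Col17a1 in 44.7% against 83.1%, Itgb4 in 23.3% against 62.8% and Itga6 in 13.6% against 48.9%. Of 15 basal genes listed, 4 were seen in at least 50 percent of cluster 2 cells and 9 in at least 50 percent of the others. These shares are of cells as deposited, at unequal depth, and pool all days, while most of the other IFE-B cells are of days 9 and 11. Within the 6 sets the share was smaller in cluster 2 in 5 for Krt14 and Krt15 and in 3 for Krt5. Krt14, the type I keratin of basal cells, had levels of 2446 and 4912 in lin+ and lin- cells of day 0 replicate 1, against 9508 and 24199. In day 0 replicate 2 they were 4585 and 3912 against 4929 and 10383, and at day 6 they were 2725 and 1921 against 6645 and 8404. Krt14 was lower in cluster 2 in all 6 sets, with a median log2 difference of -1.68 (SD 0.81).

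Its partner Krt5 had a median log2 difference of -0.88 (SD 0.48) and was lower in 5 of 6 sets, and Krt15 had -0.45 (SD 0.86), also lower in 5 of 6. Of 15 basal genes, 4 were lower by the rule and none was higher, with a median log2 difference of -1.87. Besides Krt14 these were the integrin subunit Itga3 (-2.60), the hemidesmosome linker Dst (-2.74) and the laminin chain Lamb3 (-5.02), with median set levels of 2.28, 0.666 and 0.125 in cluster 2 against 22.1, 12.3 and 72.7. Over all 7228 genes compared, 864 (12.0%) were lower and 3 (0.0415%) were higher, with a median of -2.04. That median depends on the filter and the pseudocount, since it was -0.65 with no filter on level and -0.83 with a pseudocount of 10, and the counts ran to 29 to 47 higher and 1509 to 1926 lower without 1 of the mouse sets. Genes that reached the level of 10 through the other IFE-B cells alone had to be lower in cluster 2, so medians over the genes compared are descriptions only.

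Within cluster 2 the keratins were unevenly spread. Krt14 was below a level of 100 in 42 of 103 cells (40.8%), against 18 of 266 (6.77%), and its median level was 819.9 against 8733. That median pools batches of different unit. By batch the medians were 469 against 20991 in the first and 1112 against 5008 in the second. Krt5 was below that level in 38 cells (36.9%), against 12 (4.51%). The level of 100, here and below, was chosen after the values were seen and stands for a different unit in each batch. Within sets the share of cells below it was larger in cluster 2 in 5 of 6 for both keratins, and in lin- cells of day 0 replicate 2 no cell of either class was below it.

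Malat1, a nuclear long noncoding RNA that is abundant in most cells, was spread in the same way in 4 of 6 sets. Its set levels were 17345 and 5833 in lin+ and lin- cells of day 0 replicate 1 against 9014 and 7104, and 20672 and 26339.7 in replicate 2 against 19136 and 26809. At day 6 they were 2803 and 1952 against 6851 and 7263, and the median log2 difference was -0.15 (SD 1.02). Single cells lay far from those means, since 62 of the 103 cluster 2 cells (60.2%) were below 100 and 20 had no read, while the highest cell had 92354. Of the other 266 cells 6 (2.26%) were below 100 and none was at 0. The median cell had 2.53 in cluster 2 and 4127 in the others with both batches pooled. By batch these medians were 7.00 against 1693 in the first and 1.27 against 7722 in the second. The spread was not found in every set. Below 100 were 8 of 12 lin+ and 7 of 12 lin- cluster 2 cells of day 0 replicate 1 and 17 of 24 lin+ and 24 of 27 lin- cells of day 6, but none of the 7 lin+ and 8 lin- cells of day 0 replicate 2.

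Apoe, an apolipoprotein with high levels in these skin cells, and the cytoplasmic actin Actb were held by more of the cells. Apoe was below 100 in 24 of 103 cluster 2 cells (23.3%) and in 5 of 266 others (1.88%). Actb was seen in 97.1% of cluster 2 cells and in 100% of the others, and its median level over both batches was 3013 against 5796. By batch the medians were 3425 against 6758 in the first and 2897 against 5035 in the second. In the lin+ cells of day 6 a single cell with 373 genes gave 523485 of 1000000 to Actb, and the Actb level of that set was 24570.3 with it and 2878 without it, against 2787 in the other IFE-B cells.

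Markers of other cell types were seen in few cluster 2 cells. Of 8 immune, 6 fibroblast, 4 endothelial and 3 red blood cell genes in the table, none reached the level of 10 needed for the comparison in enough sets. Ptprc, the pan-leukocyte phosphatase CD45 that was used to leave leukocytes out of the sort, had reads in 3 of 103 cells, Col1a1 of fibroblasts in 8 and Pecam1 of endothelium in 1. Col1a1 was seen in 16.7% and 25% of lin+ and lin- cluster 2 cells of day 0 replicate 1, against 0% and 13.0%. In lin- cells of day 0 replicate 2 the immune genes summed to a level of 401 against 0, with Cd207 in 12.5% of cells. In lin- cells of day 6 the 5 melanocyte genes summed to 1658 against 28.0, each seen in at most 7.41% of cluster 2 cells. The suprabasal keratin Krt10 was seen in a smaller share of cluster 2 cells in 3 of 6 sets and in a larger share in the other 3. In lin+ and lin- cells of day 0 replicate 1 the shares were 58.3% and 66.7% against 27.3% and 56.5%, in replicate 2 they were 14.3% and 37.5% against 35.7% and 26.1%, and at day 6 they were 12.5% and 14.8% against 35% and 48.3%. Of 9 suprabasal genes compared, 1 was lower (Krt77, median log2 difference -4.46) and none was higher, with a median of -0.09. Among 8 upper follicle genes none passed the rule, with a median of -2.05.

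**Figure D2:**
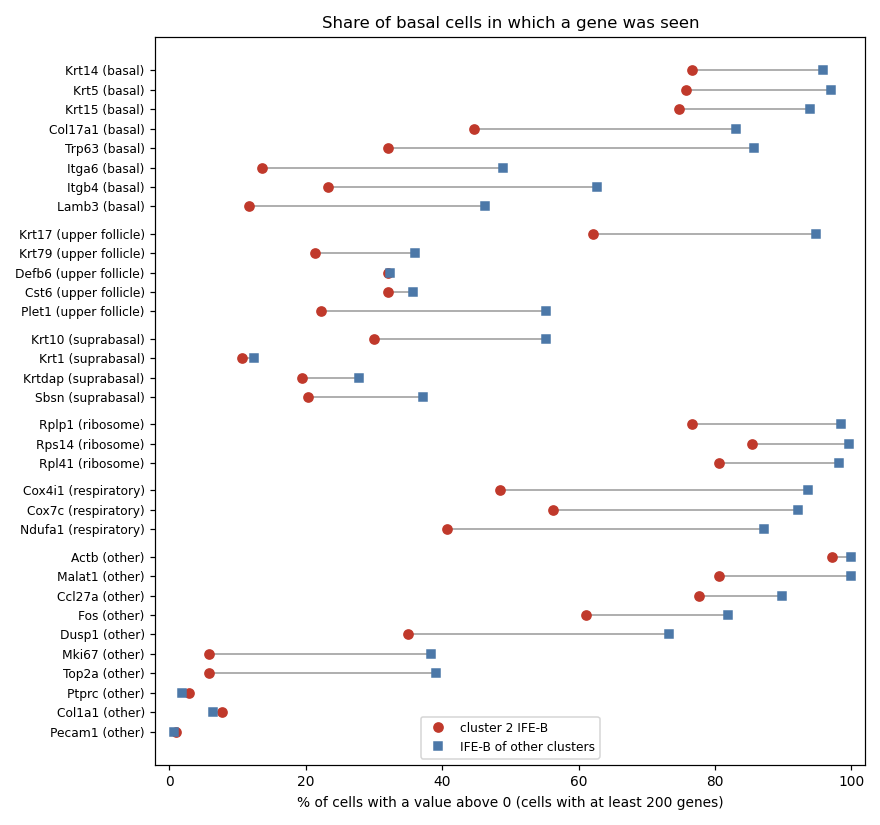
For each gene the percent of cells with a value above 0 is shown, in red circles for the 103 cluster 2 IFE-B cells and in blue squares for the 266 other IFE-B cells, all with at least 200 genes. Most genes shown, the basal keratins Krt14 (76.7% against 95.9%) and Krt5 (75.7% against 97.0%) among them, lie further left in cluster 2, and the markers of leukocytes, fibroblasts and endothelium lie near 0 in both.

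The share of cells in which a gene was seen was compared as deposited, at unequal depth. Cells with fewer genes must show many genes in a smaller share, so the counts are a description. Of 7205 genes seen in every set, 3002 (41.7%) were seen in a smaller share of cluster 2 cells in all 6 sets and 2 in a larger share. Those 2 were Pacs2 and Frmpd3, named because the count is small. Pacs2, a sorting protein of the secretory pathway, was seen in 92.6% of lin- and 83.3% of lin+ cluster 2 cells at day 6, against 48.3% and 25%, and its level was higher in 3 of 6 sets. With all days pooled, some widely seen genes had a larger share in cluster 2, among them Tug1 (84.5% against 72.6%) and Slfn5 (80.6% against 68.8%).

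The size of the difference is given by the level of the gene. For 3279 genes with a mean level under 30 in the 2 classes the median log2 difference was -2.56, and for 2454 genes between 30 and 100 it was -2.25. It was -0.78 for 1023 genes between 100 and 300, -0.23 for 364 genes between 300 and 1000, and -0.04 for 108 genes at 1000 or more. The order of these medians is in part set by the filter, since genes under 30 had a median level of 0.0214 in cluster 2 and 13.5 in the others, and a gene that reached 10 in the others alone had to be lower. Over genes of all levels, with no filter, the median was -0.65.

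**Figure D3:**
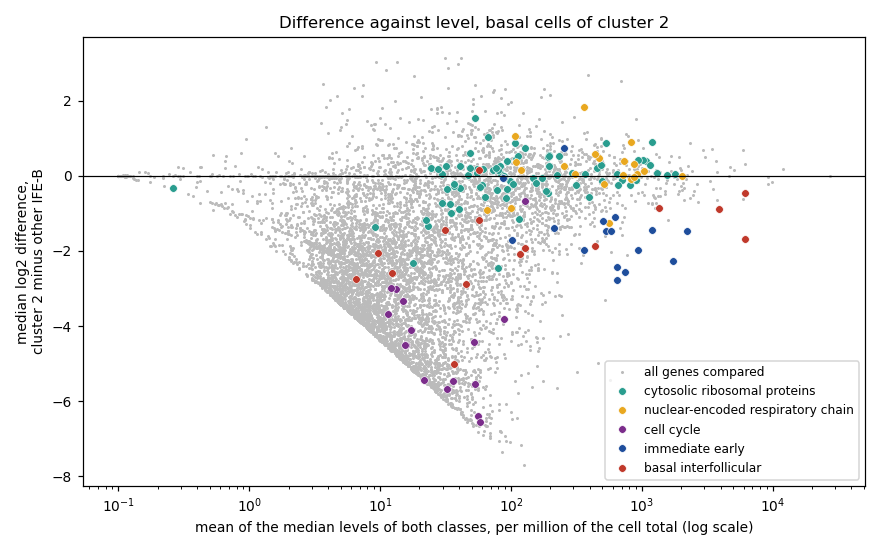
Each point is 1 of the 7228 genes compared, with the mean of the median levels of both classes on a log axis and the median over 6 sets of the log2 difference, cluster 2 minus other IFE-B, on the vertical axis. Genes at 1000 or more centre on -0.04, cytosolic ribosomal proteins (green) and the respiratory chain (orange) lie around 0 over a wide range of levels, and cell cycle genes (purple) and most immediate early genes (dark blue) lie below.

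Genes of the ribosome and of the respiratory chain had medians near 0 although fewer cells carried them. Of 81 cytosolic ribosomal protein genes, none was higher and 1 was lower (Rps13, -1.17), with a median of 0.04, which was -0.08 when sets were scaled by the median of ratios. Rpl41, a protein of the large subunit, had levels of 1968 and 1765 in day 0 replicate 1 against 2076 and 1840.4, 1323 and 1122 in replicate 2 against 1297 and 1057, and 3090.1 and 4658 at day 6 against 1616 and 1955. It was close to the other cells at day 0 and higher at day 6 in both lineages.

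The 21 nuclear genes of the respiratory chain had a median log2 difference of 0.13, which was -0.02 under the median of ratios, and none passed the rule. Cox4i1, a subunit of cytochrome c oxidase, had reads in 48.5% of cluster 2 cells and in 93.6% of the others, and its median level in the cells with reads was 2958 against 1867. All 21 were seen in at least 50 percent of the other cells, and 2 of them (Cox6c and Cox7c) in at least 50 percent of cluster 2 cells. Ndufa1, of complex I, had a median level in the cells with reads of 1471 against 598. For both genes these medians pool batches of different unit, so their size is not read.

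Cell cycle genes had the lowest median of the lists compared. Of 16, 13 were lower and none was higher, with a median of -4.47, beside 12.0% lower over all genes. Mki67, a marker of dividing cells, had reads in 5.83% of cluster 2 cells against 38.3%, with a median log2 difference of -4.50 (SD 1.18). Top2a, the topoisomerase that parts sister chromosomes, had reads in 5.83% against 39.1%, with -5.56 (SD 1.72), and the mitotic kinase Cdk1 in 0.971% against 30.1%. These shares pool all days, and within each of the 6 sets all 3 genes were seen in a smaller share of cluster 2 cells. Pcna, the clamp of the replication fork, did not pass, at -0.68 (SD 2.01). Levels of the called genes in cluster 2 were mostly near 0, so the size of each difference depends on the pseudocount of 1. A gene that passed the filter on level through the other IFE-B cells alone had to be lower in cluster 2. The count of 13 of 16 and the median of -4.47 are therefore descriptions only, and setting them beside 12.0% tests nothing about the cell cycle.

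Immediate early genes, transcription factors and feedback regulators that dissociation and wounding both induce, had 6 of 16 lower by the rule and none higher, beside 12.0% lower over all genes. Their median of -1.48 was less low than the -2.04 of all genes compared, and 12 of the 16 lay above it. Dusp1, a phosphatase of MAP kinases, had levels of 654 and 570.4 in lin+ and lin- cells of day 0 replicate 1 against 3289 and 3431, 1928 and 657 in replicate 2 against 2552 and 3032, and 688 and 128 at day 6 against 899 and 2023. The other 5 were Jun (-1.47, SD 1.14), Atf3 (-1.43, SD 0.69), Ier2 (-1.98, SD 0.91), Zfp36 (-2.57, SD 2.33) and Klf6 (-1.46, SD 4.12). Fos had -1.48 (SD 1.49), with 4 of 6 sets lower, and did not pass.

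The remaining groups had none higher, and 12.0% of all genes were lower, with a median of -2.04. The share lower was above 12.0% in the heat shock, ribosome biogenesis and wound response groups. It was below 12.0% in the class I and actin groups. The groups are small and these counts are descriptions only. Of 12 heat shock genes, 2 were lower (Hspa1b and the chaperone of the endoplasmic reticulum Hspa5), with a median of -1.25. Of 21 genes of ribosome biogenesis, 4 were lower (Nop2, Ubtf, Gar1 and Rrs1), with a median of -1.87. Of 9 genes of class I antigen presentation and interferon, 1 was lower (Irf1, an interferon regulatory factor, -5.73), with a median of -0.72, and B2m, the light chain of class I molecules, had -0.20 (SD 0.41). Of 15 actin cytoskeleton genes, 1 was lower (Rhoa, -1.85), with a median of -0.14. Of 6 genes of the wound response, 2 were lower, the keratin Krt16 (-1.58) and the protease inhibitor Serpinb2 (-5.45), with a median of -3.83.

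Groups in which no gene passed were 8 p53 targets (median -2.30), 8 chemokines (-1.54), 5 metallothioneins and ferritins (-0.52), 5 nuclear and small noncoding RNAs (-0.80), 8 outer bulge genes (-1.01), 2 sebaceous genes (-4.05) and 1 melanocyte gene (0.10). Genes encoded by the mitochondrial genome were not compared, since the table of values used here names none of them.

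The genes furthest apart were rare ones. Snord104, a small nucleolar RNA, had a level of 0 in all 6 cluster 2 sets and of 7.99 to 642 in the others. Hmces, which shields abasic sites in DNA, had at most 0.101 in cluster 2 against 30.0 to 272. Il33, a cytokine kept in the nucleus of basal keratinocytes, had 0 to 56.1 against 78.7 to 457. The others named by the rule were Idh3g, Tm2d2, Snhg15, Ddx39a, Tspan3, Samm50, Trap1, Serpinb6a and Lockd, with median log2 differences between -7.09 (Idh3g) and -6.52 (Lockd), which are not bounds on a fold change.

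Of the 3 genes that were higher in every set, Ptbp1 and Ndufaf8 had the level of 20 that the rule asked for a name, and Klf16 did not. Ndufaf8, an assembly factor of respiratory complex I, had levels of 198 and 288 in day 0 replicate 1 against 62.4 and 63.5, 1321 and 95.7 in replicate 2 against 200.3 and 66.3, and 615 and 419 at day 6 against 263 and 248. Its median log2 difference was 1.44 (SD 0.84), and it had reads in 22 of the 106 cluster 2 cells. Ptbp1, a splicing regulator, had 1.72 (SD 1.74), with reads in 13 cells. Of the other IFE-B cells, 136 and 88 had reads of Ndufaf8 and Ptbp1. Klf16, named because the count is small, had 2.14 (SD 2.54), from 12 cells.

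The next question was whether lin+ and lin- cells of cluster 2 differed, which the clustering did not use. At least 5 cells of both lineages were present in 3 mouse sets, 43 lin+ and 48 lin- cells in all. With limma on the log2 set means, the mouse set as block and Benjamini-Hochberg adjustment over all 2846 genes tested, 0 genes passed an adjusted p of 0.05 (percent called 0), the smallest adjusted p was 0.885, and 115 genes had an unadjusted p under 0.05. edgeR on summed reads called 1 gene and DESeq2 called 900, 558 higher in lin+ cells and 342 lower. Of those 900, 676 (75.1%) had at least 50 percent of the reads of the higher lineage in 1 cell.

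The 5 genes with the smallest p did not pass and were led by genes that few cells carried. The monocyte chemokine Ccl7 had levels between 263 and 686 in the lin+ cells of the 3 mouse sets, from 7 of 43 cells, and had reads in 0 of 48 lin- cells, which allows a share of up to 6.25%. Ccl2, a chemokine of the same kind, was seen in 7 lin+ cells and in 1 lin- cell, and the chromatin factor Chrac1 in 10 and 0. Their log2 differences of 8.70 (SE 1.82), 7.78 (SE 1.64) and 8.52 (SE 1.83) depend on the pseudocount, and by limma their adjusted p was 0.885 for each.

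Mt1, a metal-binding metallothionein, was lower in lin+ cells in 3 of 3 mouse sets, with 320.5, 1004 and 2118 against 2779.9, 3824 and 8084 in lin- cells, and it had reads in 26 of 43 and 30 of 48 cells. Its log2 difference was -2.32 (SE 0.51, limma adjusted p 0.885). Defb6, a defensin of the upper follicle, had 284, 1156 and 8036 in lin+ cells against 10.7, 0 and 228, with reads in 25 of 43 against 6 of 48 cells. Its log2 difference was 6.64 (SE 1.47, limma adjusted p 0.885). In the other IFE-B cells Defb6 was seen in 21 of 45 lin+ cells and in 9 of 76 lin- cells.

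Of 9 upper follicle genes 5 were tested, 4 of them higher in lin+ cells, with a median log2 difference of 4.64 beside 0.10 over all genes. None passed. Genes were tested with a level of at least 10 in at least 50 percent of the sets. A gene that reached it in lin+ cells alone had to be higher there, so the list is a description only. Gata6, Klk10, Lrig1 and Atp6v1c2 were not tested. Their log2 differences by mouse set ran in both directions, from -7.08 (Atp6v1c2) to 8.00 (Klk10). Cst6, a cystatin of the upper follicle, had levels of 152, 179 and 555 in lin+ cells against 0.720, 0.342 and 0.0421, with reads in 18 of 43 and 10 of 48 cells. Krt79, which marks the upper follicle, had reads in 15 of 43 and 4 of 48. Gata6 itself, the factor whose promoter made the label, had reads in 4 of 43 and 3 of 48 cells. Few cluster 2 cells of either lineage thus carried it. Outside cluster 2 more of the lin+ IFE-B cells of these mouse sets carried Gata6 (12 of 45) than of their lin- counterparts (3 of 76). Whether depth accounts for its low share in cluster 2 was not tested. The 4 metallothioneins and ferritins tested were all lower in lin+ cells, with a median of -2.20 and none passing. In the other IFE-B cells Mt1, Mt2 and Fth1 were also lower in lin+ cells in each mouse set. The log2 differences there were -1.74, -0.91 and -0.54 for Mt1 and -0.50, 0.15 and -0.13 for Ftl1.

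Apoe was the gene that edgeR called (log2 difference 1.23, adjusted p 0.000373), and it is named after its values were seen. Its levels, as means of a set, were 36232, 40879 and 34524 in lin+ cells against 25644, 14364 and 13129 in lin- cells, higher in 3 of 3 mouse sets. The log2 difference was 0.50, 1.51 and 1.39 by mouse set, and 1.12, 1.28 and 1.26 in the other IFE-B cells. By limma its log2 difference was 1.13 (SE 0.25, adjusted p 0.885).

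**Figure D4:**
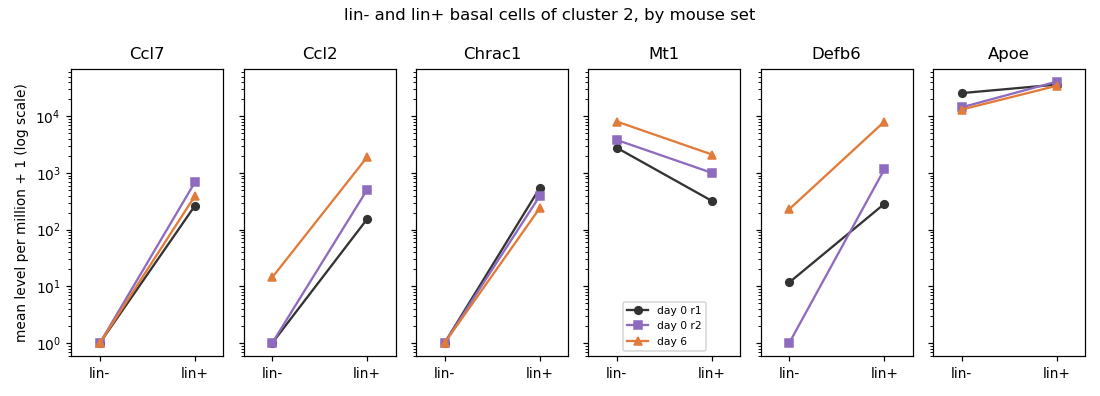
Each line joins the mean level plus 1 of lin- and lin+ cluster 2 IFE-B cells of 1 mouse set (day 0 replicate 1, day 0 replicate 2, day 6), on a log axis, for the 5 genes with the smallest p and for Apoe. The 3 lines of each gene run in the same direction, upward to lin+ for all but Mt1, and lin- levels of Ccl7 and Chrac1 are 0.

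The share of lin+ cells was compared within mouse sets. It was 48% of cluster 2 against 32.4% of the other IFE-B cells in day 0 replicate 1, 46.7% against 37.8% in day 0 replicate 2, 47.1% against 40.0% at day 6 and 50% against 59.5% in day 9 replicate 1. The mean difference was 5.50 percentage points, higher in cluster 2 in 3 of 4 mouse sets (exact sign-flip permutation test, two-sided, p = 0.5, smallest possible 0.125). The direction turned to -17.18 points when all 7 mouse sets with a cell of each class were taken (exact p = 0.203). Lineages were sorted apart, so only the difference within a mouse set is read.

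Day 6 was set against day 0 within the second batch, as a description, since each day has 1 mouse set there. Of 3625 genes, 657 (18.1%) were at least 4-fold higher at day 6 in both lineages and 317 (8.74%) at least 4-fold lower. Another 639 were 4-fold apart in opposite directions in the 2 lineages. In both lineages 1 cell held at least 50 percent of the level of the higher day for 489 of the 657 and 275 of the 317, and 20 and 44 of them were seen in at least 50 percent of the cells of the higher day in both. Genes were compared with a level of at least 10 in at least 50 percent of the means of each lineage and day. A gene that reached it at 1 day alone had to be higher at that day. Day 0 held 7 lin+ and 8 lin- cells, with 5380 and 6114 genes seen in any cell. Day 6 held 24 lin+ and 27 lin- cells, with 10021 and 8477 genes. The balance of higher and lower genes is therefore not read.

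Among widely seen RNAs, ribosomal RNA was higher and Malat1 lower at day 6. Rn45s had levels of 2021 in lin+ and 8527 in lin- cells at day 6, against 183 and 158 at day 0, log2 differences of 3.46 and 5.74, and of 1.81 and 1.54 in the other IFE-B cells of the same sets. Rn18s had 790.3 and 1771 against 90.9 and 38.4. Malat1 had 2803 and 1952 at day 6 against 20672 and 26339.7, log2 differences of -2.88 and -3.75, and of -1.48 and -1.88 in the other IFE-B cells. For these RNAs the difference ran the same way in and outside cluster 2.

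Of 75 ribosomal protein genes 7 were higher (Rpl37a, Rpl35a, Rps10, Rpl36, Rpl12, Rpl27a and Rpl14) and 1 lower (Rps6), beside 18.1% higher and 8.74% lower over all genes, with medians of 0.82 in lin+ and 1.43 in lin- cells against 0.41 and 0.01. Rpl37a was seen in 17 of 24 lin+ and in 16 of 27 lin- cells at day 6, against 3 of 7 and 4 of 8. The metallothionein Mt2 had levels of 939 in lin+ and 4666 in lin- cells at day 6, against 192 and 1011 at day 0. The ferritin heavy chain Fth1 had 1163 and 4629.7 against 179.6 and 848, and in the other IFE-B cells its log2 difference was 2.08 in lin+ and -0.01 in lin- cells. The wound response list held 5 genes for this comparison, with Krt6a and Sprr1a higher and none lower. Krt16, Krt17 and Serpinb2 ran in opposite directions by lineage. For lin+ then lin- cells the log2 differences were -1.60 then 4.56 (Krt16), 5.92 then -0.41 (Krt17) and 2.00 then -5.25 (Serpinb2). The keratin Krt6a, which wounding induces, had levels of 22.2 and 18.2 at day 6 against 0 and 0.0921 at day 0. It was seen in 8 of 24 lin+ cells against 0 of 7, and in 3 of 27 lin- cells against 2 of 8, and in the other IFE-B cells its log2 difference was -0.98 in lin+ and 1.85 in lin- cells.

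Other list members that were at least 4-fold higher included the defensin Defb6, the cornified envelope gene Sprr1a, the chemokine Cxcl14 and the mitotic genes Ccnb2 and Ube2c. Members that were at least 4-fold lower included the integrin chains of the hemidesmosome Itga6 and Itgb4, the suprabasal genes Sbsn and Calm4, the chaperone Hspa1a and the orphan receptor Nr4a1. Of 12 basal genes compared 2 were lower and 1 higher (Mt2), and of 4 suprabasal genes 2 were lower. Of 10 heat shock genes 1 was lower, and of 16 immediate early genes 1 was lower and 1 higher (Jund). Calm4 was seen in 1 of 7 lin+ cells and in 1 of 8 lin- cells at day 0, and Ccnb2 in 1 of 24 and 2 of 27 at day 6. Itgb4 was seen in 3 of 7 and 6 of 8 cells at day 0 and in 2 of 24 and 2 of 27 at day 6. For Itga6 the counts were 2 of 7 and 2 of 8 at day 0 and 4 of 24 and 0 of 27 at day 6. In the other IFE-B cells the log2 differences in lin+ and lin- cells were 0.09 and -0.66 for Itga6 and -0.73 and -0.52 for Itgb4.

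The genes furthest apart were seen in few cells. Mgst1, a glutathione transferase of sebocytes, led the higher ones, with levels of 1531 and 712 at day 6 from 9 of 24 lin+ and 5 of 27 lin- cells, and reads in 0 of 7 and 0 of 8 cells at day 0, which allows up to 42.9% and 37.5% of cells. After it came Tmem256, Coa3, Uqcc3, Pcmt1, Pdzk1ip1, Bola3 and Mien1. The lowest were Akirin1, Nsmce4a, Dtwd1, Naaa, Akr1e1, Sertad4, Mpv17 and Mrnip, each seen in 1 or 2 cells of a lineage at day 0.

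**Figure D5:**
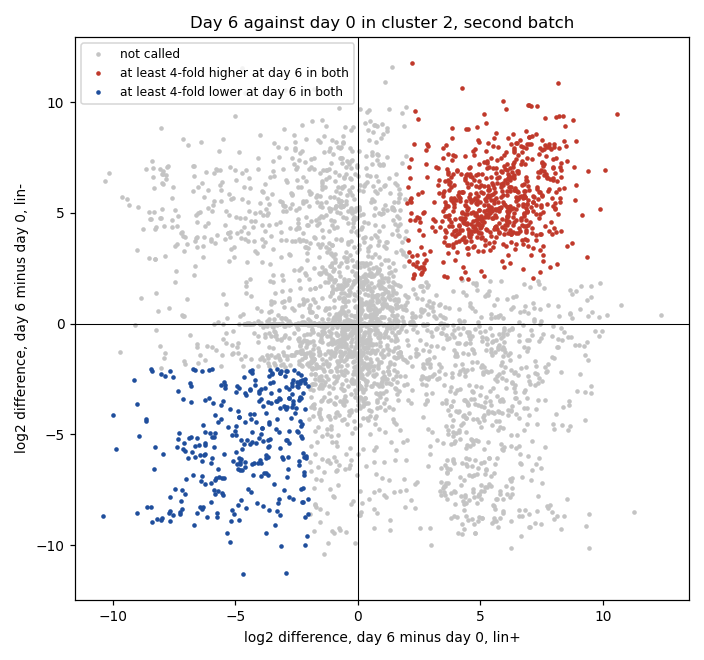
Each of the 3625 genes is placed by its log2 difference, day 6 minus day 0, in lin+ (horizontal) and lin- (vertical) cluster 2 IFE-B cells of the second batch, with genes at least 4-fold apart in both lineages in red (657 higher) and blue (317 lower). The upper left and lower right fields, where the lineages disagree, are well filled, with 639 genes at least 4-fold apart in opposite directions.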

How the data were processed

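Smart-seq2 libraries of 753 samples were deposited, 684 of them annotated cells. Per the study's methods and the submitters' processing notes the authors trimmed reads (Trimmomatic 0.27), aligned them to GRCm38/mm10 with STAR (2.2), counted RefSeq genes with featureCounts and clustered in Seurat. The notes give Seurat 3.2.2 and the paper a later version. The paper also names a batch correction with ComBat before its downstream work. The authors deposited counts in the first batch (222 cells) and RPKM in the second (462 cells), a step not named in the methods and found from the values. The clusters and identities are the authors' annotation. Second-batch reads were recovered from RPKM and gene lengths, and 99.9% of recovered values below 200 reads (lowest cell 99.2%) lay within 0.02 of a whole number. The 1048 other per-sample columns of the deposited tables were not used. No column of blank wells or of unannotated cells was used.

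Each value was scaled to 1000000 per cell and averaged within a set, and log2 was taken after adding a pseudocount of 1. Genes with a level of at least 10 in either class in at least 50 percent of the sets were compared. The count test that would suit the first batch alone was not the main test because the second batch holds RPKM, and edgeR (4.0.16) and DESeq2 (1.42.0) were run on counts and recovered reads as alternatives to limma (3.58.1). Named are the 3 markers, up to 12 called genes at each end of cluster 2 against the other cells, lineage genes that pass or the 5 smallest p, 8 at each end of day 6 against day 0, and up to 4 members of each list with the highest level. Other list members are named where they passed the rule of their comparison. Members and lists were chosen with earlier results of these data known. Steps were tested on simulated data. Other tools were Python (3.11.15), pandas (2.3.3), numpy (2.4.6), scipy (1.17.1) and R (4.3.3).

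The lineages of a mouse set come from the same skin, so the mouse set was the block. Deviations of paired sets in the second batch correlated at 0.119, and the first batch has 1 pair. Cells are not replicates. Limits set by a count of 0 (3 counts) cover counting error only. Reads carry no molecular identifiers. The gene copies were read from GRCm38 with GENCODE annotation. Alternatives covered scaling, pseudocount, filters, cell minimums, batches and each mouse set.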

Additional observations from a re-analysis of the deposited data

Results flagged for a closer look

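Of 25 groups of values examined, 1 held a value far from the rest. In the log2 ratio of the median ribosomal RNA share, cluster 2 against the other IFE-B cells, the lin- cells of day 0 replicate 2 stood at -2.44, while the other 5 sets lay between 0.04 and 1.03. The gap to the nearest set was 0.715 of the whole range of the 6 values. Chance sets apart about 1 in 20 such groups. The set holds 8 cluster 2 cells, and its 2 medians were 0.00947% and 0.0513% of reads.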

How the results depend on the processing

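Of 78 alternatives to results that answer a comparison, 62 kept direction and size, 15 moved and 1 turned. The count of 3 genes higher in cluster 2 was 7 on recovered reads, 47 with at least 10 cells, 595 in the first batch alone, 29 in the second batch alone, and 29 to 47 without 1 mouse set. The count of 864 lower was 1753 with at least 10 cells, 3257 in the first batch alone, 1926 in the second batch alone, and 1509 to 1926 without 1 mouse set. Fewer sets make it easier to agree in all of them. With a pseudocount of 10, 582 in place of 974 genes were 4-fold apart between days 6 and 0. DESeq2 called 900 lineage genes where limma called 0. Without the replicate block, with batch as covariate, limma called 0 genes, and the block changed no other call. The lin+ share difference of 5.50 points became -17.18 with no minimum above 1 cell (7 mouse sets, exact p = 0.203), and the cause was not tested. Leaving out cells under 200 genes, chosen after the data were seen, gave 3 higher and 870 lower genes, 974 between days and 0 between lineages.

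Of 381 alternatives for 38 single genes, 341 kept their size, 37 moved, 3 (Ccl7, Ccl2 and Chrac1 under DESeq2) newly passed and none turned. Ribosomal RNA from Rn18s alone was computed in the first batch alone. The limits are few cells, 3 or 4 mouse sets, at day 6 pooled mice, levels of rare genes carried by single cells, and batches of different unit.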
